A study of Mus musculus with 20 samples.

Results

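The genes described here are 9 genes that mark mast cells, measured in the terminal ileum of mice on a diet with or without tryptophan, with or without antibiotics. They are the proteases Mcpt1, Mcpt2, Mcpt4, Cma1, Cpa3 and Tpsb2, and the receptor genes Fcer1a, Ms4a2 and Kit. They were taken by name from the gene-level table of estimated counts, in which all 9 of them were found among 35204 genes. RNA sequencing of poly-A RNA was done on 20 female C57Bl6 mice, aged 7 weeks when the diets began, with 5 mice in each of 4 groups. The CD group ate a control amino acid diet and kept its microbiota (specific pathogen-free, SPF). The TDD group ate the same kind of diet without tryptophan and was also SPF. The CD+ABX and TDD+ABX groups ate these diets and received a cocktail (ABX) of ampicillin, vancomycin, gentamycin, metronidazole and neomycin. All 4 groups were on diet for 3 weeks, and none carried a transgene or deletion. A short piece of whole ileal wall was sequenced from each mouse, so that mucosa and muscle were measured together.

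Mast cells are resident immune cells that store proteases in their granules and release them when the high-affinity IgE receptor is crosslinked. In mice, those of the intestinal epithelium and lamina propria are known for the chymases Mcpt1 and Mcpt2, whereas those of connective tissue are known for the chymases Mcpt4 and Cma1, the tryptase Tpsb2 and the carboxypeptidase Cpa3. Fcer1a encodes the IgE-binding chain of the receptor and Ms4a2 its signal-amplifying chain. Kit encodes the receptor for stem cell factor, the product of Kitl, on which mast cells depend. In the gut wall Kit also marks the interstitial cells of Cajal, the pacemaker cells of the muscle layer.

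Total estimated counts ran from 36676963 to 58662617 per mouse. Fabp6, the ileal bile acid binding protein gene, and Slc10a2, the ileal bile acid transporter gene, served to check the labelled tissue. Fabp6 lay between 0.238 and 3.91 CPM (counts scaled to the library's size) in the 10 SPF mice and between 2.65 and 144.3 CPM in the 10 ABX mice. Slc10a2 lay between 1.38 and 8.80 CPM in SPF mice and between 13.2 and 86.1 CPM in ABX mice. Both markers of ileal enterocytes were therefore present but low in the SPF libraries, while the general epithelial gene Vil1 was at 2490.7 CPM or more in every mouse. Whether the position of the pieces along the ileum differed between ABX and SPF mice was not tested. Of 6 epithelial markers, Fabp6, Slc10a2 and Krt8 were higher with antibiotics on both diets at q below 0.05 (edgeR). This was so for 5.35% of all genes on the control diet and 7.19% on the deficient diet. Fabp6 did not pass with limma-voom (q = 0.101 and 0.086 on the 2 diets). Between diets 0 markers passed (edgeR), against 14.4% of all genes in SPF mice and 1.77% in ABX mice. Summed CPM of 6 smooth muscle genes, among them Myh11, ranged from 471.6 in CD mouse 5 to 2507.8 CPM over all mice, so that the pieces differed in how much muscle RNA they held.

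The chymase genes are related in sequence, and how reads of them can be told apart was checked first. On GRCm38, with GENCODE M21 gene models, they lie together on chromosome 14. Cma1 spans 55941451 to 55944675 on the minus strand, Mcpt1 spans 56017971 to 56020384 on the plus strand, Mcpt2 spans 56042041 to 56044642 on the plus strand and Mcpt4 spans 56059629 to 56062313 on the minus strand. The coding part of the first exon is shown here for Mcpt1, Mcpt2 and Mcpt4, because it shows how few bases separate the members with many reads from one with almost none. Capitals mark bases that differ from Mcpt1.
Mcpt1 (chr14:56017999-56018053, plus strand): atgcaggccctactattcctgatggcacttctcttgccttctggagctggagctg
Mcpt2 (chr14:56042154-56042208, plus strand): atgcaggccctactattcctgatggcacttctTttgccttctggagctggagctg
Mcpt4 (chr14:56062220-56062274, minus strand): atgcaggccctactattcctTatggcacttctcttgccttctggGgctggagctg
Over these 55 bases Mcpt2 differed from Mcpt1 at 1 base and Mcpt4 differed at 2 bases. Further along the transcripts they diverge. Of the 984 different 31-base words in the Mcpt1 transcript, 918 (93.3%) occurred in the transcripts of no other gene, and for Mcpt2 this held for 978 of 1031 words (94.9%). Mcpt1 had 34 words in common with Mcpt2, 22 with Mcpt4 and 0 with Cma1. The estimated counts of the single Mcpt1, Mcpt2 and Mcpt4 transcripts were whole numbers, within 0.001, in each mouse where they were above 0, which is 20, 20 and 15 mice. A read split by estimation between these genes would leave a fraction, and none was seen. Tpsb2, whose nearest relative Tpsab1 had 1 read over all 20 mice, was also whole in its 19 mice.

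The proximal promoters of Mcpt1, Mcpt4 and Cpa3 are shown as examples of those that hold a GATA word, since Gata2, a factor that mast cells require, binds GATA motifs. Of the 9 genes 7 matched a promoter in the RefSeq table (build GRCm38.p6), and Mcpt2 and Tpsb2 did not. The 250 bases before the transcription start are given, read along the gene, with AGATAA or TGATAA in capitals.
Mcpt1 (chr14:56017714-56017963, plus strand): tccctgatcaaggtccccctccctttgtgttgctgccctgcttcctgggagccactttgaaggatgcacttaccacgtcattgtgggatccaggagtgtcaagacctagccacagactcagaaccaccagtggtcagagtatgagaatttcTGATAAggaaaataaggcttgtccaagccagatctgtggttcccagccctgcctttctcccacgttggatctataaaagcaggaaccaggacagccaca
Mcpt4 (chr14:56062311-56062560, minus strand): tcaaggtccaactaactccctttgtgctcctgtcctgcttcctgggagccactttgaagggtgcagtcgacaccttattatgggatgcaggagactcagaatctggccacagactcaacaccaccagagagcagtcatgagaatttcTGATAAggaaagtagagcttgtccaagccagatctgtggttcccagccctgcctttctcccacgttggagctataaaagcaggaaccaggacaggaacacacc
Cpa3 (chr3:20242182-20242431, minus strand): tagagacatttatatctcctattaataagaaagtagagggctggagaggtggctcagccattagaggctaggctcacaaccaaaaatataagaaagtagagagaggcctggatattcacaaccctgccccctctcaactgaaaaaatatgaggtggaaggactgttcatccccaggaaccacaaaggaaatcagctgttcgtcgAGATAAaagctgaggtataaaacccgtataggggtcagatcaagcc
On either strand, AGATAA was found in 3 of the 7 promoters (Cpa3, Fcer1a and Ms4a2) and in 9.99% of all 32851 promoter windows of this length. TGATAA was found in 2 of 7 (Mcpt1 and Mcpt4) and in 7.94% of all windows. The promoters of Cma1 and Kit held neither word. TATAAA was found in 4 of 7 and in 12.4% of all windows, beginning 28 bases before the start in Mcpt1, 32 before it in Mcpt4 and 31 before it in Cpa3. The E-box words CACATG and CACGTG were found in 1 and 0 of the 7 promoters, and in 12.3% and 6.02% of all windows. Mcpt1 and Mcpt4 thus carry the same TGATAA and TATAAA words in their promoters, although their levels differed widely in these samples.

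Levels of the 9 genes were compared per transcript length, as TPM (counts scaled to transcript length and library size). Kit was highest, with a median of 7.95 TPM over the 20 mice (range 6.22 to 13.1). Mcpt1 followed with a median of 2.24 TPM (0.804 to 14.1) and Mcpt2 with 0.795 TPM (0.228 to 5.0). Kit exceeded Mcpt1 in 19 of 20 mice, and Mcpt1 exceeded Mcpt2 in 20 of 20 mice. The medians of the other 6 genes were lower, but ranges over all mice met: the lowest Mcpt2 value (0.228 TPM) was above the highest Tpsb2 value (0.223 TPM) and below the highest values of Cpa3 (0.402 TPM), Fcer1a (0.340 TPM) and Ms4a2 (0.247 TPM). The median was 0.139 TPM for Tpsb2 and 0.137 TPM for Cpa3, and Tpsb2 was the higher of this pair in 9 of 20 mice, so that their order was not set. Ms4a2 (median 0.0590 TPM), Fcer1a (0.0506 TPM), Cma1 (0.0285 TPM) and Mcpt4 (0.0278 TPM) made up the bottom. Ms4a2 exceeded Fcer1a in 10 of 20 mice, and Cma1 exceeded Mcpt4 in 12 of 20 mice, so these neighbours did not separate beyond their spread. Among the 6 proteases named at the start, the 2 chymases of the mucosal mast cell thus had the highest medians, and the 2 connective tissue chymases were near the limit of detection.

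**Figure D1:**
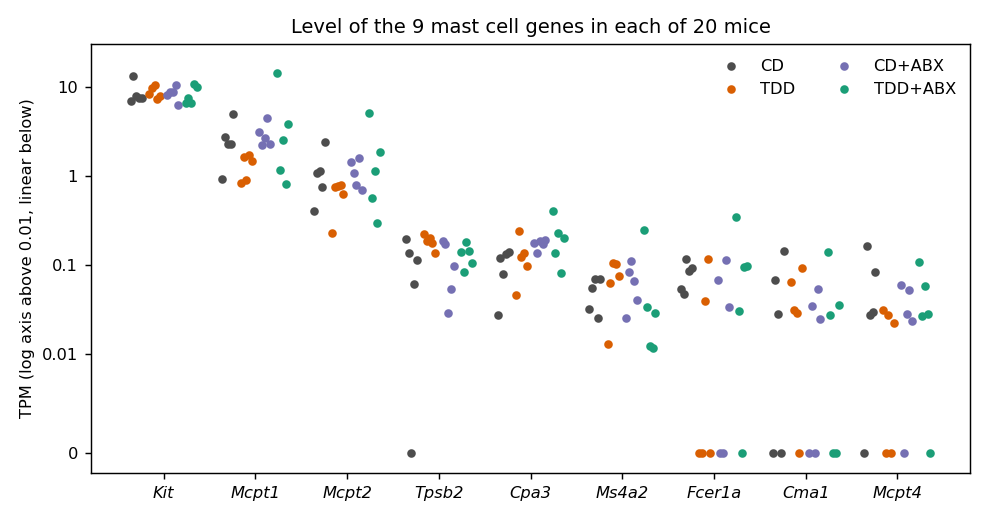
Each point is 1 of 20 mice, coloured by group, with the level in TPM on an axis that is logarithmic above 0.01 and linear below it. The genes are ordered by their median over all mice. The medians of Kit, Mcpt1 and Mcpt2 lie above those of the other 6 genes, while single points of Mcpt2 overlap with those of Cpa3, Fcer1a and Ms4a2. Of the other 6 genes, Fcer1a, Cma1 and Mcpt4 were at 0 in 6, 7 and 5 mice.

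Differences between groups were tested over the 16306 genes that reached 0.5 CPM in 1 mouse or more. Of the 9 mast cell genes, 3 passed this limit (Mcpt1, Mcpt2 and Kit) and 6 did not. For 4 pairs of groups and the interaction, the quasi-likelihood test of edgeR was used, and a gene was called with a Benjamini-Hochberg adjusted p (q) below 0.05 and a change of at least 2-fold. No mast cell gene was called in any comparison. Over all genes tested, 1.84% were called between TDD and CD in SPF mice, 0.331% between TDD+ABX and CD+ABX, 2.30% between CD+ABX and CD, 1.67% between TDD+ABX and TDD, and 0.0245% for the interaction. Without the limit on fold, 0 mast cell genes passed as well, against 14.4%, 1.77%, 12.8%, 15.5% and 0.0368% of all genes. At an unadjusted p under 0.05, edgeR gave 2 of the 3 genes (Mcpt1 and Mcpt2) between TDD+ABX and TDD and 0 in the other comparisons, and limma-voom gave 0 throughout. Over all genes this held for 28.5%, 14.8%, 26.7%, 30.6% and 8.90% in the same order of comparisons. DESeq2 called 1 gene, Mcpt1 between TDD+ABX and TDD (log2 fold change 1.73, q = 0.0186), and 0 in the other comparisons. Over all genes, DESeq2 called 313 between TDD+ABX and TDD, where edgeR called 272. A p that misses the threshold does not show that levels were equal, and with 3 genes tested these counts say little about the set.

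Mcpt1 encodes the chymase that mucosal mast cells shed into the gut lumen and blood. In the CD mice it was measured at 0.606, 1.72, 1.48, 1.56 and 3.39 CPM. In the TDD mice it was measured at 0.602, 1.12, 0.601, 1.24 and 1.02 CPM. The TDD values overlapped the lower part of the CD range, and those of TDD mice 1 and 3 lay just below the lowest CD value. In the CD+ABX mice the values were 2.05, 1.44, 1.74, 2.98 and 1.62 CPM. In the TDD+ABX mice they were 9.61, 0.781, 1.61, 0.517 and 2.37 CPM. The TDD+ABX group thus held both the highest and the lowest Mcpt1 level of all 20 mice, and all 4 groups overlapped. Means ± SD were 1.75 ± 1.01 CPM in CD, 0.917 ± 0.298 CPM in TDD, 1.97 ± 0.608 CPM in CD+ABX and 2.98 ± 3.78 CPM in TDD+ABX (n = 5 each).

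Mcpt2 encodes the neighbouring chymase, made by the same cells. It was measured at 0.276, 0.721, 0.778, 0.551 and 1.73 CPM in the CD mice. In the TDD mice it was measured at 0.176, 0.550, 0.539, 0.606 and 0.459 CPM. CD mouse 5 had the highest Mcpt2 level among SPF mice, as it had for Mcpt1. The CD+ABX mice had 0.992, 0.743, 0.553, 1.11 and 0.528 CPM. The TDD+ABX mice had 3.6, 0.400, 0.765, 0.199 and 1.22 CPM. The same TDD+ABX mouse was again highest of all 20. The ratio of Mcpt1 to Mcpt2 counts had a median of 2.16 over all mice, with a lowest value of 1.12 in TDD mouse 3 and a highest of 3.43 in TDD mouse 1, where only 7 Mcpt2 counts were found. In TDD+ABX mouse 1 the ratio was 2.67, within the range of the other mice, so both chymases were higher there in like measure. Within groups, the deviations of the log2 CPM of both genes from their group means went together over the 20 mice (Pearson r = 0.934, Spearman rho = 0.886), with r = 0.864 without the 2 mice farthest from the median and r = 0.905 without TDD+ABX mouse 1. These points share library and depth, and the correlation is given as a description.

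**Figure D2:**
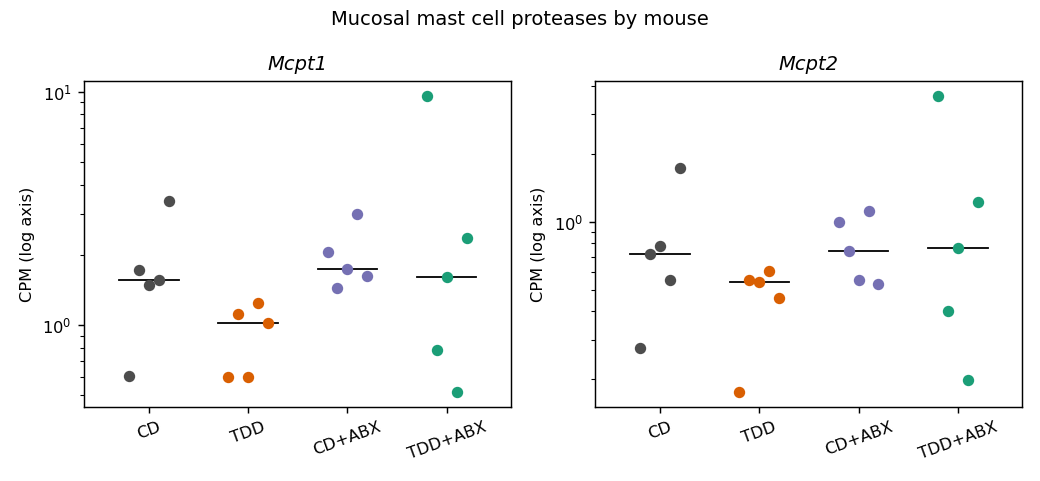
Each point is 1 mouse, with the CPM of Mcpt1 (left) and Mcpt2 (right) on a log axis, and the line is the median of the 5 mice of a group. TDD+ABX mouse 1, at 9.61 CPM of Mcpt1 and 3.6 CPM of Mcpt2, lies above the other 19 mice, whose highest values were 3.39 and 1.73 CPM.

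Removal of tryptophan from the diet was compared first in mice with an intact microbiota. Mcpt1 differed by a log2 fold change of -0.94 (SE 0.60, q = 0.329, edgeR) and Mcpt2 by -0.81 (SE 0.60, q = 0.409) between TDD and CD. These differences were below 2-fold and did not pass the test. They rested in part on CD mouse 5, without which they were -0.57 (q = 0.629, edgeR) and -0.34 (q = 0.790), and without CD mouse 1 they were -1.15 (q = 0.248) and -1.02 (q = 0.313), past 2-fold. In ABX mice the signs were opposite, with 0.60 (SE 0.58, q = 0.682, edgeR) for Mcpt1 and 0.65 (SE 0.57, q = 0.645) for Mcpt2 between TDD+ABX and CD+ABX. Without TDD+ABX mouse 1 they turned to -0.58 (q = 0.635, edgeR) and -0.29 (q = 0.878). The direction of the diet difference under antibiotics therefore rested on 1 mouse.

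Antibiotics were compared within each diet. On the control diet Mcpt1 differed by 0.16 (SE 0.58, q = 0.905, edgeR) and Mcpt2 by -0.06 (SE 0.58, q = 0.969), which are values close to 0. On the tryptophan-deficient diet Mcpt1 differed by 1.70 (SE 0.60, unadjusted p = 0.0112, q = 0.0626, edgeR) and Mcpt2 by 1.40 (SE 0.60, unadjusted p = 0.0301, q = 0.118) between TDD+ABX and TDD. With all 20 mice kept, Mcpt1 was at 0.95 with limma-voom (q = 0.330), 0.80 with limma on log2(TPM + 1) (q = 0.181) and 1.36 with the replicate number as a block (q = 0.198), and Mcpt2 at 0.79 with limma-voom (q = 0.418). Without TDD+ABX mouse 1 the edgeR values became 0.53 (q = 0.481, edgeR) and 0.47 (q = 0.604). The other 4 TDD+ABX mice had 0.517 to 2.37 CPM of Mcpt1, a range that took in the whole TDD range. Leaving out a low TDD+ABX mouse had the opposite result: without mouse 4 Mcpt1 reached 1.99 (q = 0.0229, edgeR) and Mcpt2 1.69 (q = 0.0429), and without mouse 2 Mcpt1 reached 1.94 (q = 0.0462). The difference of the diet effect between ABX and SPF mice was 1.54 (SE 0.84, q = 0.621, edgeR) for Mcpt1 and 1.46 (SE 0.83, q = 0.655) for Mcpt2, and 0.37 and 0.53 without TDD+ABX mouse 1. In bulk tissue, fewer cells of a type and less RNA per cell cannot be told apart.

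**Figure D3:**
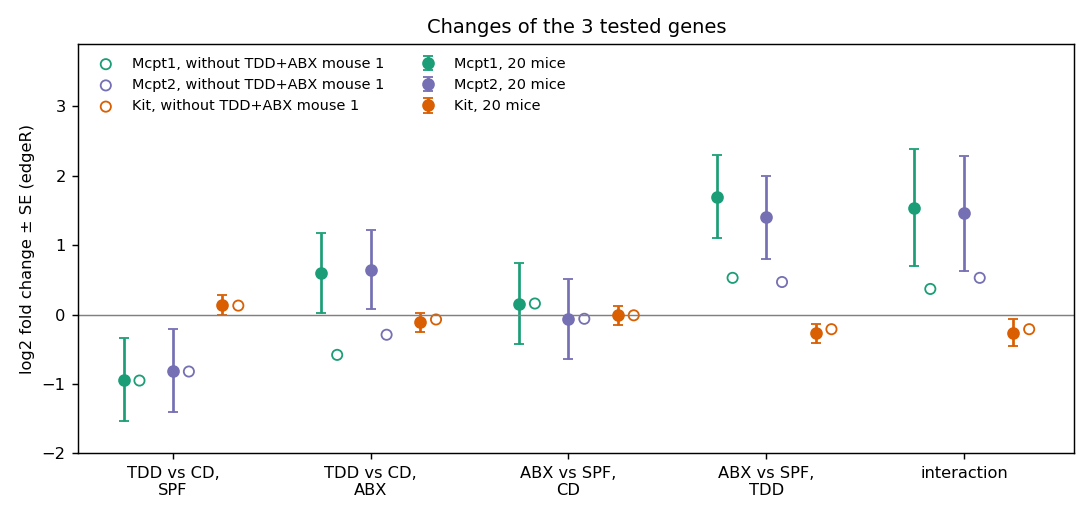
Filled points are log2 fold changes ± SE from edgeR with 20 mice for Mcpt1, Mcpt2 and Kit, and open points are the same values without TDD+ABX mouse 1. The interaction is the diet effect in ABX mice minus that in SPF mice. The open points of Mcpt1 and Mcpt2 fall to 0.53 and 0.47 for TDD+ABX against TDD and to -0.58 and -0.29 for TDD+ABX against CD+ABX.

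The 6 low genes were read as counts, since 1 read more or less changes their level. A library at 0 allows up to 3 reads, which corresponds to 0.0511 to 0.0818 CPM without scaling, for counting error only. Cpa3 encodes carboxypeptidase A3, which is stored with the chymases. Its counts were 1, 5, 4, 6 and 7 in CD, 2, 9, 6, 2 and 6 in TDD, 8, 4, 9, 9 and 8 in CD+ABX, and 20, 7, 4, 4 and 8 in TDD+ABX. It was found in all 20 mice, and its highest value was that of TDD+ABX mouse 1. Tpsb2 (chromosome 17, 25366305 to 25369098, plus strand) encodes mast cell tryptase beta 2. Its counts were 5, 4, 0, 2 and 4 in CD, 7, 6, 7, 5 and 6 in TDD, 6, 5, 1, 2 and 4 in CD+ABX, and 5, 3, 6, 5 and 3 in TDD+ABX. Unlike Cpa3 it was not high in TDD+ABX mouse 1, where 11 of the 19 other mice had a lower level.

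Mcpt4, the chymase of connective tissue mast cells, had 27 counts over all 20 mice, with at most 5 in a mouse and 0 in 5 mice. Cma1, known as Mcpt5 and marking the same cells, also had 27 counts, with at most 5 in a mouse and 0 in 7 mice. CD mouse 5 and TDD+ABX mouse 1 had 5 Cma1 counts each. The IgE receptor chains were as low. Fcer1a (chromosome 1, 173221284 to 173227214, minus strand) had 37 counts in all. They were 1, 1, 3, 2 and 3 in CD, 0, 0, 1, 3 and 0 in TDD, 2, 0, 0, 3 and 1 in CD+ABX, and 11, 1, 0, 3 and 2 in TDD+ABX. Ms4a2 (chromosome 19, 11615523 to 11623719, minus strand) had 87 counts in all. They were 2, 4, 6, 2 and 6 in CD, 1, 5, 9, 7 and 8 in TDD, 2, 6, 2, 3 and 4 in CD+ABX, and 13, 3, 1, 1 and 2 in TDD+ABX. Between TDD+ABX and TDD, all 6 low genes overlapped, and no difference was detectable at this depth. When no limit on low counts was set and all 9 genes were tested, the smallest q of the 6 low genes over the 5 comparisons was 0.287, for Fcer1a between TDD+ABX and TDD (unadjusted p = 0.0715, edgeR), with 0 of 30 tests at an unadjusted p under 0.05.

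**Figure D4:**
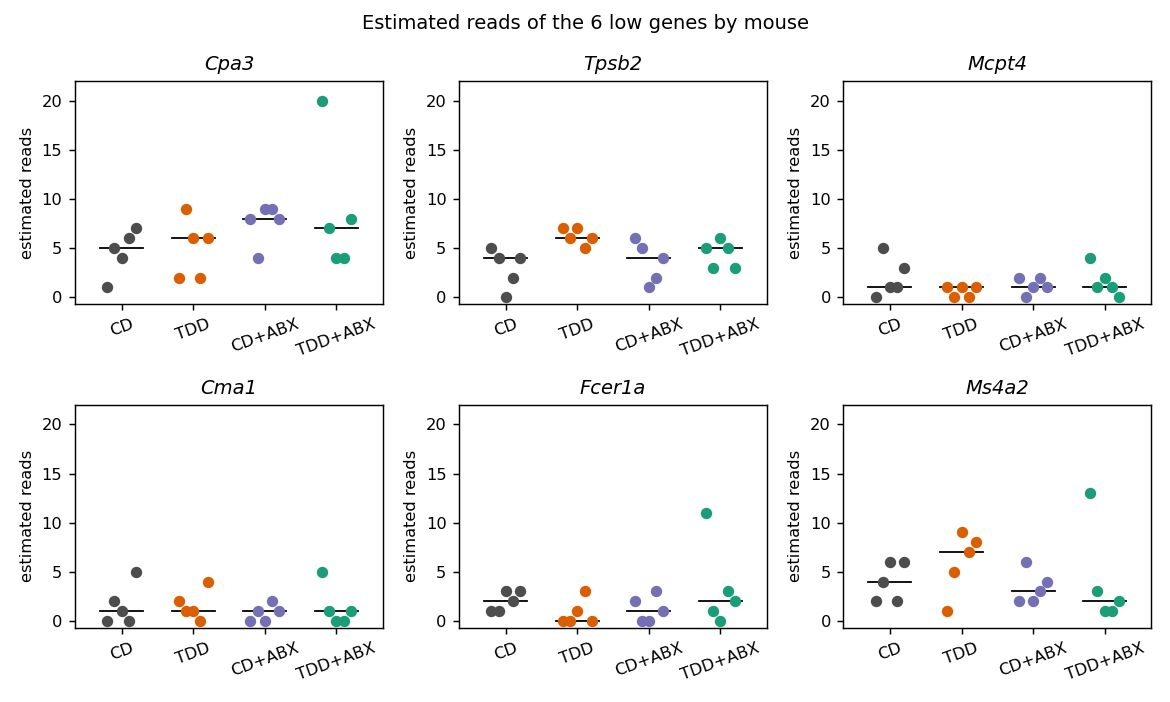
Estimated reads of Cpa3, Tpsb2, Mcpt4, Cma1, Fcer1a and Ms4a2 are plotted for each mouse on 1 linear axis, with the median of 5 mice as a line. TDD+ABX mouse 1 has 20 reads of Cpa3, 11 of Fcer1a and 13 of Ms4a2, the highest of all mice, but 5 of Tpsb2, which is not.

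TDD+ABX mouse 1 therefore stood apart for several genes at once. For Mcpt1, Mcpt2, Cpa3, Fcer1a and Ms4a2, 5 of the 9 genes, it was above all 19 other mice. For Mcpt4 and Cma1 it was above 18 of them. Its level was 6.51 times the median of the others for Mcpt1, 6.50 times for Mcpt2 and 3.33 times for Cpa3. For Ms4a2 and Fcer1a, with medians of 3.5 and 1.0 counts over the 20 mice, no such ratio is given, and this mouse had 13 and 11 counts against at most 9 and 3 in any other mouse. Kit was not part of this, at 19.4 CPM against a range of 19.5 to 26.9 CPM in the other TDD+ABX mice. Summed counts of the 6 low genes were 58 in this mouse and 9 to 28 in the others. The muscle genes summed to 641.1 CPM in this mouse, the second lowest of its group, whose range was 608.6 to 2040.2 CPM. CD mouse 5, the mouse with the second highest Mcpt1 level, had the lowest muscle sum of all, at 471.6 CPM. Low muscle sums were also found without Mcpt1 as high as in TDD+ABX mouse 1 or CD mouse 5. The TDD+ABX mouse with a muscle sum of 608.6 CPM had at most 2.37 CPM of Mcpt1. In TDD the lowest muscle sum was 658.7 CPM, and no mouse of that group had more than 1.24 CPM of Mcpt1. The part of muscle content in the Mcpt1 level was not tested. Epithelial markers summed to 11402.1 CPM in TDD+ABX mouse 1, within the 10511.6 to 13325.1 CPM of its group. Over the 20 mice the deviations of Mcpt1 and the muscle gene Myh11 from their group means had a Pearson r of -0.489 (rho = -0.283), and r = -0.287 without the 2 mice farthest from the median, given as a description.

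Kit (chromosome 5, 75574916 to 75656722, plus strand) was measured with 764 to 1582 counts per mouse. Its values were 21.0, 33.5, 22.4, 22.4 and 21.8 CPM in CD and 24.3, 28.8, 32.8, 23.9 and 24.2 CPM in TDD. In CD+ABX they were 25.4, 22.8, 23.6, 29.2 and 19.3 CPM, and in TDD+ABX 19.4, 19.5, 21.4, 26.9 and 24.0 CPM. All 4 groups overlapped, and CD mouse 2 stood above the rest of its group. The log2 fold change was 0.14 (SE 0.14, q = 0.536, edgeR) between TDD and CD, -0.11 (SE 0.14, q = 0.752) between TDD+ABX and CD+ABX, -0.01 (SE 0.14, q = 0.977) between CD+ABX and CD, and -0.27 (SE 0.14, q = 0.192) between TDD+ABX and TDD. The standard errors were well below those of the chymases, so that a 2-fold change in Kit would have been large against its error. Within groups Kit varied both with markers of interstitial cells of Cajal and with muscle genes. Pearson r was 0.660 for Ano1, the chloride channel of Cajal cells (rho = 0.595), 0.690 for Etv1, a factor they require (rho = 0.741), 0.575 for Thbs4 (rho = 0.484) and 0.528 for Hcn4 (rho = 0.471). For the muscle genes it was 0.594 for Myh11 (rho = 0.598) and 0.612 for Acta2 (rho = 0.597). With Mcpt1 its r was -0.112 (rho = -0.012). The 2 mice whose Kit deviation from the group mean lay farthest from the median deviation were then left out. Without them r was 0.509 for Ano1, 0.647 for Etv1, 0.530 for Thbs4 and 0.501 for Hcn4. It was 0.563 for Myh11, 0.552 for Acta2 and -0.119 for Mcpt1. These are descriptions over 20 mice that share library and depth. The 4 marker genes of Cajal cells and the 6 of smooth muscle were all tested, and 0 of either passed q below 0.05 in any comparison with edgeR, DESeq2 or limma-voom, or an unadjusted p under 0.05 with edgeR.

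Kit is made in 2 full-length coding forms, with and without a short in-frame stretch next to the membrane. The stretch is shown with its flanks, as Kit-201 carries it and Kit-204 does not. Capitals mark the 12 bases at the end of exon 9 (chr5:75639147-75639158, plus strand).
Kit-201: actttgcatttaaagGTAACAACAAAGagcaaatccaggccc
Kit-204: actttgcatttaaagagcaaatccaggccc
Kit-201 made up 27.0% to 75.2% of the estimated counts of both forms, with a median of 50.7% over the 20 mice. The share was 56.2% ± 8.44 in CD, 45.4% ± 6.60 in TDD, 51.5% ± 17.8 in CD+ABX and 46.0% ± 12.8 in TDD+ABX (SD, n = 5 each), and all groups overlapped. The forms have 5146 of 5184 and 5211 different 31-base words in common, so their split rests on few reads and no test was made. Kit-204 lacks the 12 bases and yet has more words than Kit-201, so the 2 transcript models also differ elsewhere. The share is therefore that of the transcript models and does not measure the 12 bases alone.

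Kitl (chromosome 10, 100015630 to 100100416, plus strand) encodes stem cell factor, the ligand of Kit, and it was lower without dietary tryptophan both with and without antibiotics. It was measured at 71.4, 79.1, 93.9, 79.1 and 82.4 CPM in CD and at 77.4, 68.5, 65.6, 59.1 and 63.3 CPM in TDD. In CD+ABX it was at 81.6, 83.2, 78.2, 80.4 and 88.3 CPM, and in TDD+ABX at 62.2, 62.4, 64.9, 59.2 and 63.0 CPM. TDD mouse 1 overlapped the CD range, and in ABX mice the groups did not overlap, which was so for 4.78% of all genes tested. Kitl fell by 0.28 on the log2 scale with TDD in SPF mice (SE 0.07, q = 0.0105, edgeR) and fell by 0.40 in ABX mice (SE 0.07, q = 0.00713), both under 2-fold. Under the 30 alternatives the call in ABX mice held in all, and that in SPF mice held in 29, the exception being the fit of only those groups (q = 0.0729). Between ABX and SPF mice it differed by 0.02 on the control diet (SE 0.07, q = 0.905, edgeR) and by -0.10 on the deficient diet (SE 0.07, q = 0.352). The diet effect differed by -0.12 between ABX and SPF mice (SE 0.10, q = 0.790, edgeR). Kitl is made by many cells of the gut wall, and which of them carried this change was not tested.

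**Figure D5:**
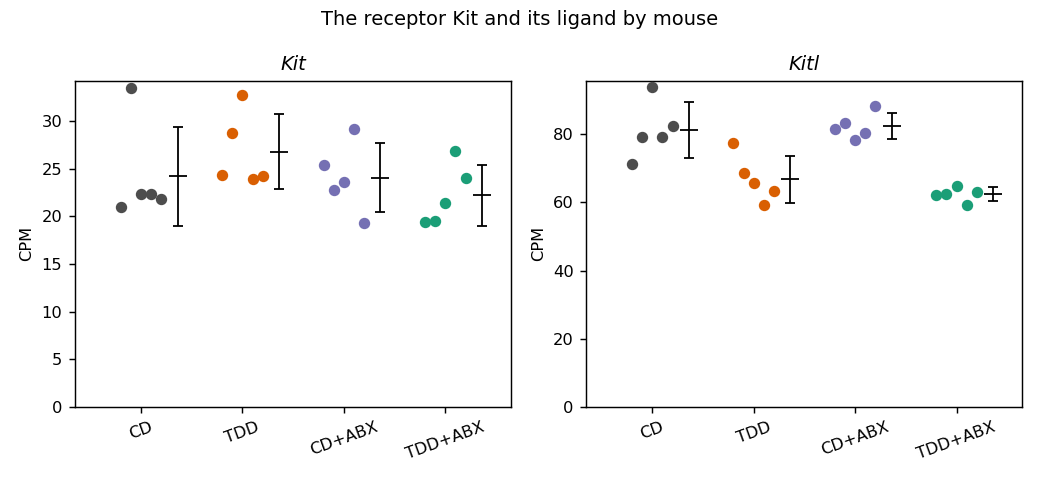
CPM of Kit (left) and of its ligand gene Kitl (right) are plotted for each mouse from 0, with the mean and SD of 5 mice beside each group. Kit overlaps between all groups, and Kitl is at 59.1 to 77.4 CPM in mice without dietary tryptophan and at 71.4 to 93.9 CPM in mice with it.

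The other genes of mast cell growth and recruitment were taken from a list of 18, of which 14 were tested. Between TDD and CD, 0 were higher and 1 lower at q below 0.05 in SPF mice and the same counts were found in ABX mice, Kitl in each case, where 7.73% and 1.09% of all genes were lower. With antibiotics, 5 of 14 were lower on the control diet (7.43% of all genes) and 3 of 14 on the deficient diet (8.30% of all genes), and 0 were higher. They included Itgae, the alpha E integrin of intraepithelial mast cells and T cells, with -1.18 (q = 0.00341, edgeR) on the control diet and -0.62 (q = 0.0824) on the deficient one. Itgb7, the beta 7 integrin with which mast cell progenitors enter the gut, differed by -1.17 (q = 0.00780, edgeR) and -0.76 (q = 0.0599). Csf2rb, the common beta chain of the receptors for interleukin 3, interleukin 5 and GM-CSF, fell by 0.54 (q = 0.0452, edgeR) and by 0.72 (q = 0.0104) on the log2 scale, and the former call held in 11 of 30 alternatives (largest q = 0.110, without CD mouse 3). The median change of the list was -0.46 and -0.57, against -0.00 and -0.03 over all genes. Of 7 B and T cell markers, 3 and 2 were lower in the same comparisons, with Cd3e, a T cell receptor chain, at -1.63 (q = 0.00112, edgeR) and -0.99 (q = 0.0206), and several genes of the list are made by these cells too; their part in the result was not tested. The mast cell growth factors Il3 and Il9 had 0 counts in all 20 mice, and Il4 had 39 counts in all. With single mice left out the control diet count fell to 3, without CD mouse 2, 3 or 5 or CD+ABX mouse 2 or 4. The deficient diet count of 3 went to 0 with limma on log2(TPM + 0.1), to 1 without TDD mouse 2, 3, 4 or 5 or TDD+ABX mouse 1, 2, 3 or 4, and up to 7 without TDD mouse 1.

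Signalling genes of the high-affinity IgE receptor were tested as a list of 16, all of which passed the limit on low values. With antibiotics 9 of 16 were lower and 0 higher on the control diet, and 11 of 16 were lower and 0 higher on the deficient diet, against 7.43% and 8.30% of all genes lower. The median was -0.39 and -0.42, against -0.00 and -0.03 over all genes. Lat, the adaptor phosphorylated by Syk, fell by 2.0 (SE 0.32, q = 0.000781, edgeR) and by 0.97 (SE 0.31, q = 0.0414) on the log2 scale, and the latter call held in 14 of 30 alternatives (largest q = 0.115, without TDD+ABX mouse 1). Lcp2, which encodes the adaptor SLP-76, fell by 0.95 (q = 0.00219, edgeR) and by 0.72 (q = 0.0118). Gab2, an adaptor of the Fyn branch, fell by 0.38 (q = 0.00576, edgeR) and by 0.39 (q = 0.00457), and Plcg1, the phospholipase that starts the calcium signal, fell by 0.22 (q = 0.00780, edgeR) and by 0.36 (q = 0.00044). Fcer1g, the common gamma chain through which Fcer1a signals, fell by 0.41 (q = 0.00784, edgeR) and by 0.42 (q = 0.00709). It was at 10.7 ± 1.14 CPM in CD, 9.38 ± 0.993 in TDD, 8.06 ± 0.474 in CD+ABX and 7.0 ± 0.783 in TDD+ABX (SD, n = 5), and Fcer1a and Ms4a2 never exceeded 0.269 CPM. These signalling genes are used by other white blood cells too, and the markers of B and T cells moved with them. Of 7 B and T cell markers 3 were lower on the control diet with antibiotics and 2 on the deficient diet, where 0 were without TDD+ABX mouse 1 or 3. Their summed CPM was 33.1 to 82.8 in CD, 22.6 to 120.9 in TDD, 16.2 to 22.8 in CD+ABX and 14.6 to 82.0 in TDD+ABX, with none of the 7 at 0 over all mice. Their part in the result was not tested. With limma on log2(TPM + 0.1) 6 and 4 of the 16 were lower, and the 11 became 7 without TDD mouse 2 or 4 or TDD+ABX mouse 3 or 4. Between TDD and CD the list gave 1 gene higher, Cd84, and 0 lower in SPF mice (6.70% of all genes higher) and 0 either way in ABX mice (0.681% of all genes higher), with 1 at an unadjusted p under 0.05 (edgeR). Cd84 was named after its values were seen, and it passed in 8 of 30 alternatives.

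Among 18 other genes known from mast cells, 13 were tested. In SPF mice 1 was higher with TDD and 1 lower (6.70% and 7.73% of all genes), and in ABX mice 0 passed (1.77% of all genes), with 1 at an unadjusted p under 0.05 (edgeR). The higher gene, Gata2, passed in 23 of 30 alternatives, and its largest q was 0.0847, with TDD mouse 3 left out. The lower gene, Tpsg1, passed in 22 of 30, and its largest q was 0.105, with TDD mouse 5 left out. Neither gene passed when CD mouse 3, CD mouse 5 or TDD mouse 5 was dropped. Dropping CD mouse 4 also undid the Gata2 call, and dropping TDD mouse 2 undid that of Tpsg1. Gata2, the transcription factor named above, rose by 0.55 on the log2 scale (SE 0.16, q = 0.0296, edgeR), from 1.41 ± 0.222 CPM in CD to 2.06 ± 0.340 CPM in TDD. Tpsg1, which encodes a membrane-anchored tryptase, fell by 0.38 with TDD in SPF mice (q = 0.0393, edgeR) and rose by 0.42 from TDD to TDD+ABX (q = 0.0230). It was at 16.7 ± 1.62, 12.9 ± 1.82, 15.5 ± 2.61 and 17.3 ± 1.97 CPM in CD, TDD, CD+ABX and TDD+ABX, above the soluble tryptase Tpsb2. Its CD and TDD values did not overlap, which was so for 9.58% of all genes tested. Which cells of the ileal wall carried the changes of Gata2 and Tpsg1 was not tested. Srgn, the proteoglycan core of mast cell granules and also of other white blood cells, fell with antibiotics by 0.76 (q = 0.00345, edgeR) and by 0.74 (q = 0.00412), where 2 of 13 genes were lower on the control diet and 3 of 13 on the deficient diet (7.43% and 8.30% of all genes). Cd63, a granule membrane protein that epithelial cells also make, fell by 0.25 on the deficient diet (q = 0.0217, edgeR) and did not pass without TDD mouse 1 or TDD+ABX mouse 1, 3 or 5. Il1rl1, the receptor for interleukin 33, rose by 1.39 between TDD and TDD+ABX (SE 0.43, q = 0.0349, edgeR), where 2 of 13 genes and 7.19% of all genes were higher. Its groups did not overlap, at 4.16 ± 2.54 CPM in TDD and 11.0 ± 3.28 CPM in TDD+ABX, which was so for 11.0% of all genes tested. Their ends nearly met, at 7.95 CPM in TDD mouse 5 and 7.96 CPM in TDD+ABX mouse 4. Neither Tpsg1 (q = 0.0571, edgeR) nor Il1rl1 passed in that comparison without TDD+ABX mouse 1. Hdc, the enzyme that makes histamine, had 0.523 to 1.33 CPM and passed q below 0.05 in no comparison.

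Of 12 genes for mast cell mediators, all were tested. With antibiotics on the control diet, 2 were higher and 2 lower (5.35% and 7.43% of all genes), and on the deficient diet 0 were higher and 2 lower (7.19% and 8.30% of all genes). The 2 higher were Alox5 and Alox5ap, its activating protein, which passed in 11 of 30 alternatives. The 2 higher became 1 when any 1 of 12 mice was left out (CD mice 1, 3, 4 and 5, TDD mice 2, 3, 4 and 5, CD+ABX mice 3, 4 and 5 and TDD+ABX mouse 3), with limma on log2(TPM + 0.1) they became 0. Without TDD mouse 1 the 2 lower became 4. Alox5, the first enzyme of leukotriene synthesis, rose by 0.98 on the control diet (SE 0.23, q = 0.00773, edgeR), with 2.86 ± 0.371 CPM in CD and 5.65 ± 1.88 CPM in CD+ABX (n = 5), and its groups did not overlap, which was so for 9.74% of all genes. Cysltr1, a leukotriene receptor, fell by 0.50 (q = 0.0150, edgeR) and by 0.45 (q = 0.0237) on the 2 diets, and passed on neither with limma on log2(TPM + 1) or log2(TPM + 0.1). Alox5 did not pass with limma on these scales either. On the deficient diet Cysltr1 also failed to pass without TDD mouse 2, 4 or 5 or TDD+ABX mouse 4 or 5. With TDD 1 gene was lower in SPF mice (7.73% of all genes) and 0 passed in ABX mice (1.77% of all genes), where 2 had an unadjusted p under 0.05. The former was Pla2g4a, the phospholipase that frees arachidonic acid, which fell by 0.43 (q = 0.0191, edgeR) but did not pass without CD mouse 5. Alox5 is also made by other white blood cells, and Siglecf, listed as an eosinophil marker and also made by tuft cells, rose in the same comparison by 1.07 (q = 0.00915, edgeR), the 1 of 5 tested eosinophil markers that passed. Summed CPM of the 8 eosinophil markers was 4.93 to 7.24 in CD and 6.91 to 16.0 in CD+ABX, with Ear1 at 0 in all mice. The eosinophil peroxidase gene Epx had 43 counts over all mice. The part of these cells in the result was not tested.

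The genes next to the chymases on chromosome 14 and the markers of basophils had few counts. Of 11 neighbours, 6 had 0 counts in all 20 mice, among them Ctsg, and 1 was tested. This was Gzmb, the granzyme of cytotoxic lymphocytes, which fell by 1.46 with antibiotics on the control diet (q = 0.0352, edgeR), with 14.3 ± 13.7 CPM in CD and 5.19 ± 0.591 CPM in CD+ABX, and which did not pass with limma-voom (q = 0.241) or without CD mouse 4 or 5 or any 1 of the CD+ABX mice. Mcpt8 and Prss34, proteases of basophils, had 19 and 0 counts in all, and 0 of the 2 tested basophil markers passed in any comparison with edgeR, with 1 at an unadjusted p under 0.05. Mcpt9 and Cma2, which are close relatives of Mcpt1, had 73 and 51 counts. The type 2 cytokine genes Il13 and Il5 had 20 and 14 counts over all mice. Of 8 genes of type 2 lymphocytes, 5 were tested and 1 was higher with antibiotics on each diet (5.35% and 7.19% of all genes), Il17rb on the control diet (0.52, q = 0.0413, edgeR) and Il1rl1 on the deficient diet, and each call was lost when single mice were left out (Il17rb without CD mouse 1, 3, 4 or 5 or CD+ABX mouse 3, 4 or 5, and Il1rl1 without TDD mouse 1, 3 or 4 or TDD+ABX mouse 1, 2 or 3). For the interaction 0 of the 84 list genes tested passed q below 0.05 with edgeR, DESeq2 or limma-voom, and 5 had an unadjusted p under 0.05 with edgeR, which was so for 8.90% of all genes.

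The genes whose level varied most like a mast cell gene were ranked over the 20 mice, by the Pearson r of the deviations of log2(CPM + 1) from the group means, among 14048 genes with a mean of at least 1 CPM. For Mcpt1 they were Nfatc2ip (r = 0.862), Gmnn (0.855), Ang4 (0.854), Spc25 (0.795) and Depdc1b (0.793). Gmnn, Spc25 and Depdc1b are genes of dividing cells, and Ang4 is an antimicrobial peptide gene of Paneth and goblet cells. Without TDD+ABX mouse 1 these values were 0.738, 0.742, 0.787, 0.805 and 0.752. For Cpa3 the nearest gene was Mcpt1 (r = 0.828, rho = 0.708), followed by Ang4 (0.776), and without TDD+ABX mouse 1 r was 0.652 and 0.650. For Fcer1a, Akt1s1 (0.814) and Mcpt1 (0.772) were nearest, with 0.709 and 0.486 without that mouse. Without the 2 mice farthest from the median, r was 0.568 for Cpa3 with Mcpt1. It was 0.588 for Fcer1a with Akt1s1 and 0.465 for Fcer1a with Mcpt1. In the other 19 mice Fcer1a had at most 3 counts and Cpa3 at most 9, so these values rest on few reads. For Kit the nearest were Armcx1 and Ift122 (r = 0.879 each), then Ppfibp1, Fam83d and Moxd1, and no mast cell gene was among the first 5. These are the highest of many values over points that share library and depth, and they are given as descriptions.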

How the data were processed

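RNA was sequenced from 20 ileal pieces, 5 per group, on an Illumina instrument after poly-A selection. Groups were taken from the sample titles. The authors quantified transcripts with kallisto 0.44.0 on GRCm38, and deposited a gene table of estimated counts, which were whole numbers as deposited, and transcript tables of estimated counts and TPM per mouse, of which 98.4% of transcripts matched GENCODE M21. The deposited TPM values were summed per gene here for levels. Depth limits the 6 low genes, for which intervals and limits cover counting error only.

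The estimated counts were tested with edgeR 4.0.16 (R 4.3.3): TMM scaling, a floor of 0.5 CPM reached by 1 mouse or more, 1 fit with 4 groups, quasi-likelihood test, Benjamini-Hochberg adjustment over 16306 genes, called at q below 0.05 and at least 2-fold. CPM values are TMM-scaled. SE is the log2 fold change divided by the square root of F. Nothing in the labels gives cages or batches, so p-values measure the spread between these mice, which are taken as separate animals. Alternatives were DESeq2 1.42.0, limma 3.58.1 (voom, and log2 of TPM + 1 or + 0.1), other scalings and filters, the replicate number as a block, each comparison fitted on its own and each mouse left out. The edgeR fit was also run on simulated data, and the outcome is not given here. No pair of libraries of a group matched within sampling noise.

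The 9 genes and all gene lists were chosen with earlier results of these data known. Named were the 9 genes and, of each list, up to 4 genes with the smallest q below 0.05 in any comparison, and the 5 genes most like Mcpt1, Cpa3, Kit and Fcer1a; Gata2, Il1rl1, Alox5 where listed, Hdc, the cytokines and other genes outside this rule were named after their values were seen. Motifs were searched in the 250 bases before each RefSeq start.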

Additional observations from a re-analysis of the deposited data

Results flagged for a closer look

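Dixon's gap set the highest or lowest mouse against the rest in 36 groups of 5 mice (9 genes in 4 groups). Of these, 6 groups passed. Chance passes it in about 1 of 20 groups only where values are normally distributed. The counts of the low genes, with zeros and ties, are not, so the number that passed is not set against a chance rate. In 4 of them the mouse was TDD+ABX mouse 1: Mcpt1 at 9.61 CPM where the next mouse had 2.37, Ms4a2 at 0.269 CPM (13 counts) where the next had 0.0601, Fcer1a at 0.227 CPM (11 counts) where the next had 0.0597, and Cma1 at 0.103 CPM (5 counts) where the next had 0.0239. Kit in CD mouse 2 was at 33.5 CPM where the next had 22.4. Fcer1a in TDD mouse 4 was at 0.0826 CPM, which is 3 counts, where the next had 0.0207. The causes were not tested.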

How the results depend on the processing

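Depth limits the 6 genes below 0.5 CPM, and 5 mice a group with 1 mouse far above the rest limit Mcpt1 and Mcpt2. Of 447 log2 fold changes of Mcpt1, Mcpt2 and Kit under alternatives, 424 kept their direction and their side of the threshold, 4 passed it and 19 changed sign; for those that changed the cause was not tested.

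The number of mast cell genes called between TDD+ABX and TDD, 0 in the reported fit, was 1 with DESeq2 and ranged from 0 to 2 when single mice were left out (1 without TDD+ABX mouse 2, 2 without mouse 4). It was 0 in all other alternatives and in the other 4 comparisons. Between TDD and CD, Mcpt1 ranged from -1.15 to -0.57 and Mcpt2 from -1.02 to -0.34 without single mice. Changes of sign between TDD+ABX and CD+ABX were those of Mcpt1 with limma-voom (-0.17) and log2(TPM + 0.1) (-0.08), and without single mice Mcpt1 ranged from -0.58 to 0.87 and Mcpt2 from -0.29 to 0.93. Between CD+ABX and CD, Mcpt2 was 0.08 with limma-voom, 0.02 with log2(TPM + 1) and 0.10 with log2(TPM + 0.1), and Kit was 0.00 with RLE scaling and DESeq2 and 0.01 with both TPM fits. Without single mice Mcpt1 ranged from -0.05 to 0.55, being -0.05 without CD mouse 1 and -0.03 without CD+ABX mouse 4. Mcpt2 ranged from -0.27 to 0.42, being 0.42 without CD mouse 5, 0.05 without CD+ABX mouse 3 and 0.06 without CD+ABX mouse 5. Kit ranged from -0.08 to 0.14, being 0.14 without CD mouse 2, 0.01 without CD+ABX mouse 2 and 0.06 without CD+ABX mouse 5.

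With the replicate number as a block, 0 mast cell genes were called and no call among them changed. The numbers share no source in the labels, the correlation of same-numbered mice ran from -0.419 to 0.289, and 1 of 5 mice correlated best with its own number in each comparison, so the pairing was not used. Of 57 gene and comparison pairs of the other lists at q below 0.05, 57 kept their sign under all 30 alternatives, 22 stayed below 0.05 under all of them and 50 did so under the block.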
